A study of Mus musculus with 4 samples.

Results

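The promoters of most interferon-stimulated genes and of every interferon receptor and receptor kinase gene on the list were accessible in mouse T-helper 17 (Th17) cells, whereas the promoters of Oas1a, Oas2, Ifit3, Ifi44 and Samd9l had no accessible region in any replicate. Of all protein-coding promoters 64.1% were accessible in every replicate. Among those with a CpG content like the receptor and kinase genes the shares were 76.4% to 96.6%. The list names 45 genes of the interferon response; 44 of the 21938 protein-coding genes of the annotation are on it, and Mx2, which the annotation calls a polymorphic pseudogene, was not counted. Primary Th17 cells of mouse strain C57BL/6NJ were assayed by ATAC-seq, which maps accessible chromatin by the sites where a transposase can insert sequencing adapters. The labels give 1 group of 4 biological replicates with 1 shared donor identifier, an unknown age and no treatment or other group, so the interferon genes are compared here with all protein-coding genes of the same replicates, and the spread between replicates may be technical. Each replicate has a peak list on the mm10 build, with 83904, 85127, 85293 and 84137 regions on the autosomes and the sex chromosomes in replicates 1 to 4, and no read counts, so the sequencing depth is unknown.

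Type I interferons bind the IFNAR1 and IFNAR2 receptor chains, and interferon gamma binds IFNGR1 and IFNGR2. The kinases JAK1, TYK2 and JAK2 on these chains phosphorylate STAT proteins, which bind the interferon-stimulated response element (ISRE) or the gamma-activated site (GAS) at interferon-stimulated genes, whose products restrict viruses and intracellular pathogens. In CD4 T cells interferon gamma is the cytokine of the Th1 lineage and is known to restrain Th17 differentiation. The label was checked at marker promoters. No markers of Th1, Th2 or regulatory T cells were included, so an admixture of these cells was not checked. A region within 1 kb of a transcription start site (TSS) was present in all 4 replicates at 5 of 5 T cell markers (Cd3e, Cd3d, Cd3g, Cd4, Cd28) and 5 of 5 Th17 markers (Il17a, Il17f, Il23r, Ccr6, Rora). Over all protein-coding genes the share was 64.1%. The summit, or highest point, of the strongest region lay outside this window at Ccr6 (-1303 bp, negative is upstream) and Il17f (-1117 to -1053 bp). Il17a and Cd4 had weak regions, at mean percentiles of 18.0 and 21.1 among the regions of a replicate. Of the markers of other cells, 0 of 4 myeloid, 0 of 3 NK or CD8 and 0 of 2 plasmacytoid dendritic cell promoters were open in all replicates, and 1 of 4 B cell promoters was, that of the transcription factor gene Pax5. All of these except Pax5 lie in the 2 quintiles of genes with the lowest promoter CpG ratio, given below, where 27% of all genes were open. In those quintiles 5 of 5 T cell and 4 of 4 Th17 markers were open. The NK cell marker Klrb1c had a region in replicates 2, 3 and 4, with signals of 4.70, 4.59 and 2.83.

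The ISRE strings at the promoters are shown first, because open and closed members carried the same letters. The ISRE was searched on both strands as GAAA, any 2 bases and again GAAA, within 500 bp of every annotated TSS, and each stretch below is written on the strand of its gene, so a string on the other strand reads as its reverse complement. Capitals mark the ISRE strings. The first pair are the 250 bases before the RefSeq start (build GRCm38.p6) of Ifit1, open in all replicates (chr19:34640639-34640888, plus strand), and of its neighbour Ifit3, open in none (chr19:34583279-34583528, plus strand).
Ifit1: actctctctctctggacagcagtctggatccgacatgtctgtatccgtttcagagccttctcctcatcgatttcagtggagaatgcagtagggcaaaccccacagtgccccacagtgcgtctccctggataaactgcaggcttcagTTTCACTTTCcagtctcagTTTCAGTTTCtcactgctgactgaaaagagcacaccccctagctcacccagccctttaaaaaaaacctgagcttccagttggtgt
Ifit3: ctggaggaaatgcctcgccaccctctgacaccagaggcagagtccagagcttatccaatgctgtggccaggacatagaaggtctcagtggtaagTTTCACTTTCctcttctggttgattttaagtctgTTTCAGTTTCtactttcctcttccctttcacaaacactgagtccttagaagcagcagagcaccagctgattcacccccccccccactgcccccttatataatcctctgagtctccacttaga
Both stretches hold the string GAAAGTGAAA and the string GAAACTGAAA, read on the minus strand. They lie at -82 and -63 bp from the Ifit1 start site (negative is upstream), and at -154 and -120 bp from the Ifit3 start site.

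Shorter stretches of the GRCm38.p6 genome show strings of open promoters whose string lay within 100 bp of a region's summit in all 4 replicates: Isg15 (chr4:156200856-156200915, minus strand), Usp18 (chr6:121245798-121245857, plus strand), Gbp7 (chr3:142530258-142530317, plus strand) and Rsad2 (chr12:26456538-26456597, minus strand).
Isg15: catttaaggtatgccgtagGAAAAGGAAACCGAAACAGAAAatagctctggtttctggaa
Usp18: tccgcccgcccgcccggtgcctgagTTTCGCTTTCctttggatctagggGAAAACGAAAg
Gbp7: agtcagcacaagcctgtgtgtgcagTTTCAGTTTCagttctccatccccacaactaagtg
Rsad2: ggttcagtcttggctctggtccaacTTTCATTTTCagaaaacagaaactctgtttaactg
Isg15 holds 3 overlapping strings in this stretch. The corresponding stretches of 3 OAS genes that were not open in all replicates are those of Oas1a (chr5:120907522-120907570, minus strand), Oas2 (chr5:120749890-120749949, minus strand) and Oas3 (chr5:120777700-120777759, minus strand).
Oas1a: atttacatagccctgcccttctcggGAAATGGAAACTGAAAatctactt
Oas2: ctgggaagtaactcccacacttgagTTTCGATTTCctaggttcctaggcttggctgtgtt
Oas3: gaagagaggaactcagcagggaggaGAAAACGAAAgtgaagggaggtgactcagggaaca
The last pair lie at the start of Igtp (chr11:58199497-58199555, plus strand) and at a start site of the neighbouring Irgm2 (chr11:58214888-58214947, plus strand), 2 immunity-related GTPase genes.
Igtp: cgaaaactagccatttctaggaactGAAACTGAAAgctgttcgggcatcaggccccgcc
Irgm2: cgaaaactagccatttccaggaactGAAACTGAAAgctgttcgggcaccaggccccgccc
Over 59 bases compared, 57 were identical between the stretches of these genes.

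A promoter is called open when a region lay within 1 kb of any annotated TSS in every one of the 4 replicates, each taken by its own list. By this measure 36 of 44 members were open (81.8%), against 14070 of 21938 protein-coding genes (64.1%). Ifitm3, Iigp1 and Oas3 had a region in 3 replicates, and Ifi44, Ifit3, Oas1a, Oas2 and Samd9l in 0. Among all protein-coding genes 276 had a region in exactly 3 replicates. Of the 37 interferon-stimulated members 29 were open, and of the 7 receptors and kinases 7 were.

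Promoters rich in CpG are open in most cell types, and the members are poorer in CpG than other genes. Their median ratio of observed to expected CpG within 500 bp of the start was 0.358, and that of all protein-coding genes 0.552. In the 2 quintiles of all genes with the lowest CpG ratio, 15 of 23 members were open, against 2370 of 8775 genes (27%). In the lowest quintile 6 of 10 members were open, against 15.4% of genes, and in the next quintile 9 of 13, against 38.6%. In that next quintile Igtp and Irgm2 had the same strongest region. Ifitm2 and Igtp, also in it, were not open when the summit had to lie in the window. In the middle quintile 14 of 14 members were open (76.4% of all genes), in the fourth 6 of 6 (93.7%), and in the highest quintile the only member, Jak2, was open (96.6%). All 8 members that were not open lay in the lowest 2 quintiles.

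**Figure D1:**
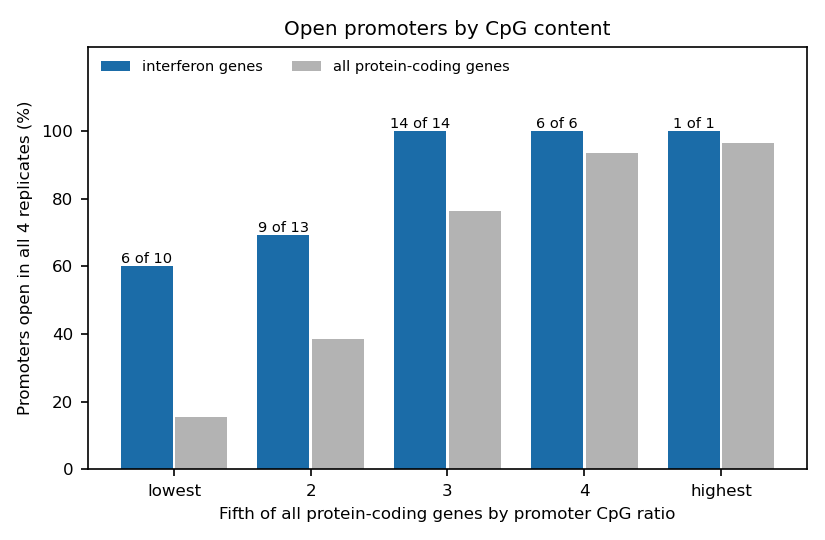
Share of promoters open in all 4 replicates (y axis, %) in each quintile of all protein-coding genes by promoter CpG ratio (x axis), for the interferon genes (blue, with their numbers) and for all protein-coding genes (grey). In the lowest quintile 6 of 10 interferon genes are open, against 15.4% of genes.

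The strength of a promoter region is given as the deposited signal, the authors' enrichment of a region over background, and as its percentile among all regions of the same replicate. The strongest regions at the open members had a median percentile of 72.0 ± 0.55 (SD, n = 4 replicates), with 72.3, 72.7, 71.6 and 71.6 in replicates 1 to 4. The open promoters of all protein-coding genes had a median of 79.3 ± 0.491, with 79.3, 78.8, 80.0 and 79.1. The ranges did not overlap, so the members' median was lower by more than the spread between replicates. The replicates measure the same promoters, so this spread does not cover the choice of members, and the open members' mean percentiles ran from 24.2 to 94.6. The comparison was not matched for CpG. A mean percentile of at least 50 was reached by 30 of 36 open members (83.3%) and by 84.7% of open protein-coding promoters.

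**Figure D2:**
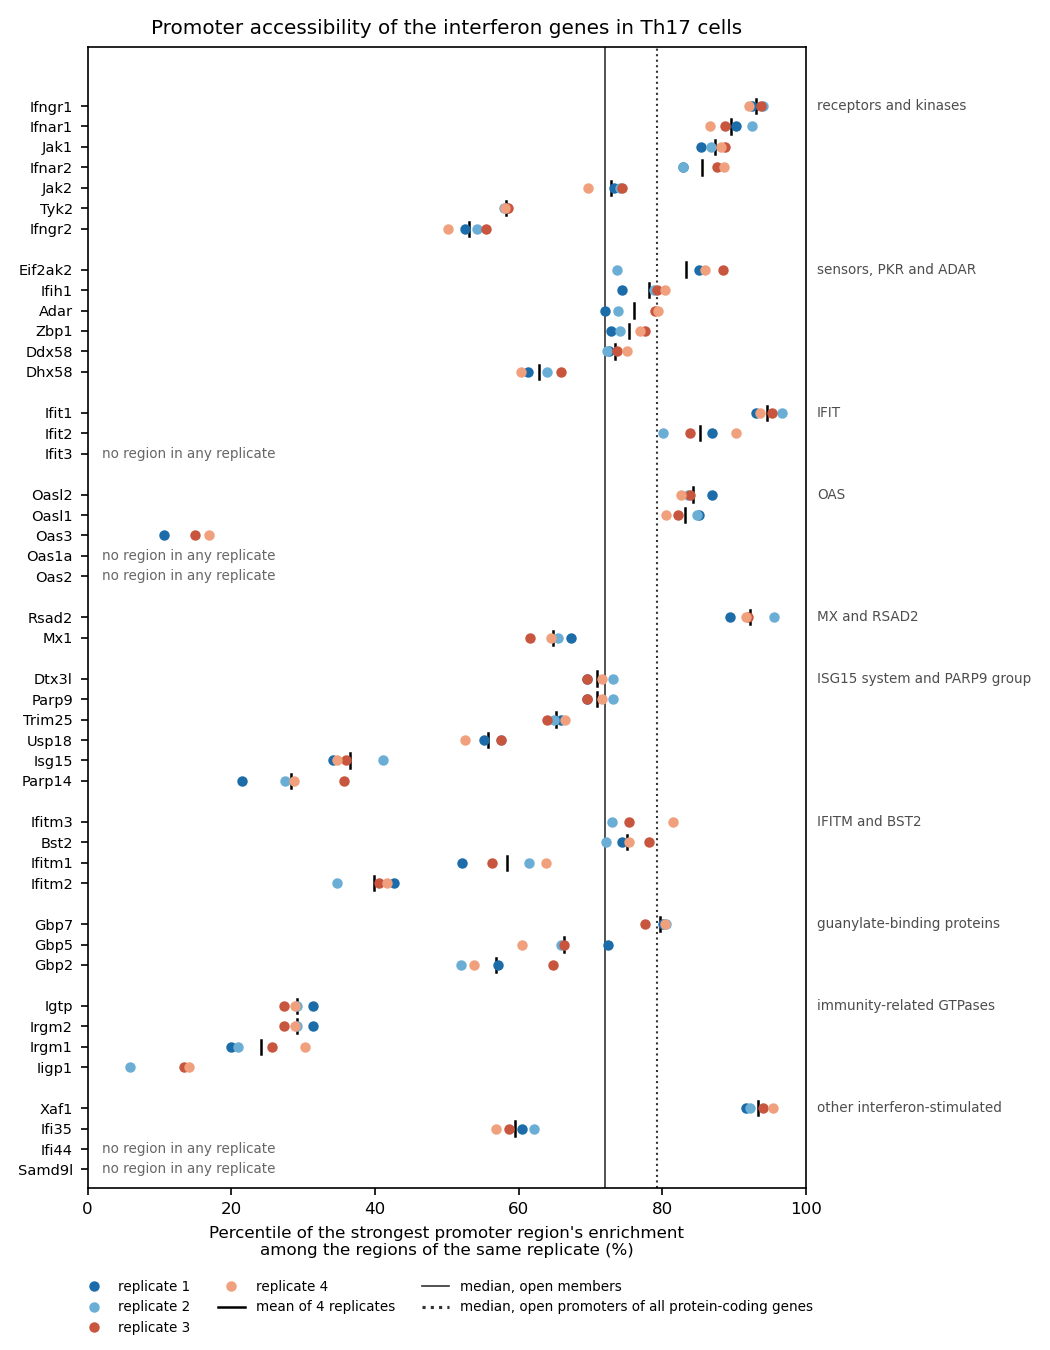
Percentile of the strongest region within 1 kb of a start site (x axis, %) for each member (y axis, grouped by role), with 1 point per replicate and a bar at the mean of 4. The solid line is the median of the open members, 72.0, and the dotted line that of all open protein-coding promoters, 79.3; Ifit1, Xaf1 and Ifngr1 are at the top of the range and Irgm1 at the bottom of the members open in all 4 replicates.

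All 7 receptor and kinase genes were open, against 64.1% of all protein-coding genes. Ifngr1, the ligand-binding chain of the interferon gamma receptor, had signals of 14.4, 15.3, 14.0 and 13.7 in replicates 1 to 4, a percentile of 93.1 ± 0.954 (SD, n = 4). Its partner Ifngr2 had 6.51, 6.88, 6.53 and 6.13, a percentile of 53.1 ± 2.34. The signals of these partner genes did not overlap in any replicate. The type I receptor chains were closer in signal. Ifnar1 had 13.7, 14.7, 12.6 and 12.3 and Ifnar2 had 11.8, 12.0, 12.2 and 12.8. Ifnar1 was thus the higher in replicates 1 to 3 and Ifnar2 in replicate 4. Their mean percentiles were 89.5 ± 2.44 for Ifnar1 and 85.5 ± 3.03 for Ifnar2. By the deposited −log10 q, which measures significance and not enrichment, Ifnar1 was the higher in each replicate (308.7, 340.1, 345.1 and 294.6 against 114.0, 117.1, 152.7 and 136.6). Among the kinases, Jak1, which serves both receptor types, had 12.4, 13.1, 12.6 and 12.7, a percentile of 87.3 ± 1.51. Jak2, which serves the interferon gamma receptor, had 9.66, 10.1, 9.42 and 8.83 (72.8 ± 2.15), and Tyk2, which serves the type I receptor, had 7.31, 7.42, 6.90 and 7.12 (58.3 ± 0.263). By signal the order Jak1, Jak2, Tyk2 held in each replicate. The order depended on the measure. By −log10 q Jak2 was above Jak1 in each replicate (363.9, 391.3, 432.7 and 345.9 against 296.2, 317.4, 376.4 and 329.9). Ifngr1 and Tyk2 had CpG ratios in the middle quintile, where 76.4% of all genes were open. Ifngr2, Ifnar1, Ifnar2 and Jak1 were in the fourth quintile (93.7%) and Jak2 in the highest (96.6%). The 7 of 7 open genes are thus near the share for promoters of such CpG content.

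The genes of sensors of viral nucleic acid, of PKR and of ADAR were open in 6 of 6 cases, against 64.1% of all protein-coding genes, with mean percentiles of 62.9 to 83.3. Eif2ak2, which encodes the RNA-activated kinase PKR, had signals of 12.3, 10.02, 12.5 and 12.1 and a percentile of 83.3 ± 6.56, with replicate 2 below the others. Ifih1, the gene of the RNA sensor MDA5, had 9.89, 11.1, 10.3 and 10.8 (78.2 ± 2.62), and Ddx58, the gene of RIG-I, had a percentile of 73.4 ± 1.25. Adar, an RNA-editing enzyme gene, stood at 76.0 ± 3.67, the nucleic acid sensor gene Zbp1 at 75.3 ± 2.22, and Dhx58, the gene of the RIG-I relative LGP2, at 62.9 ± 2.54.

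The IFIT genes encode proteins that bind viral RNA, and the members of this family differed among themselves. Ifit1 (chr19:34640871-34650009) had the highest promoter percentile of the members, 94.6 ± 1.63 (SD, n = 4), with signals of 14.6, 16.5, 14.6 and 14.2. Ifit2 (chr19:34550694-34576419) had 12.8, 11.4, 11.4 and 13.2, a percentile of 85.3 ± 4.34. By −log10 q the order was the other way in each replicate, with 209.9, 167.7, 213.0 and 258.4 at Ifit2 and 143.8, 165.0, 177.0 and 155.3 at Ifit1. Ifit3 (chr19:34583531-34588731), which lies between Ifit2 and Ifit1, had no promoter region and no region shared by all 4 replicates within 10 kb. The regions nearest to its start were 15190 and 12309 bp downstream in replicates 1 and 2, and 5589 and 5907 bp upstream in replicates 3 and 4, with signals of 2.58 to 3.83. Only 51.3% of the 50-base stretches of the Ifit3 promoter window occur once in the genome, against 99.8% at Ifit1 and 93.3% at Ifit2. Short reads from a repeated stretch can be lost in alignment or masking, and their part in the missing Ifit3 region was not tested.

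The OAS genes encode enzymes that make 2'-5'-linked oligoadenylates and activate RNase L, and OAS-like proteins. Oasl2 and Oasl1 were open, with signals of 12.8, 12.2, 11.4 and 11.3 at Oasl2 and 12.3, 12.5, 11.0 and 10.9 at Oasl1. The summit of the Oasl1 region lay at -1251, -1245, -1252 and -1251 bp from the nearest start site, outside the promoter window, and with the window set to 500 bp Oasl1 was no longer open. Oas1a (chr5:120896256-120907521) and Oas2 (chr5:120730333-120749853) had no promoter region in any replicate. The region nearest to Oas1a was 31085 to 46221 bp away, whereas Oas2 had a region in an intron, 3673 to 3733 bp from the nearest annotated start, with signals of 5.62, 5.31, 7.27 and 7.50. Oas3 (chr5:120753098-120777661) had a weak region over its start in replicates 1, 3 and 4, with signals of 2.89, 3.05 and 3.29 and percentiles of 10.7, 14.9 and 16.8. In replicate 2 the nearest region began 1471 bp downstream. That region, in an Oas3 intron (chr5:120775179-120776446), was found in all 4 replicates with signals of 12.8, 12.7, 11.2 and 11.9. At Oas2 97.9% and at Oas3 97.5% of the promoter's 50-base stretches occur once in the genome, at Oas1a 81.7%.

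**Figure D3:**
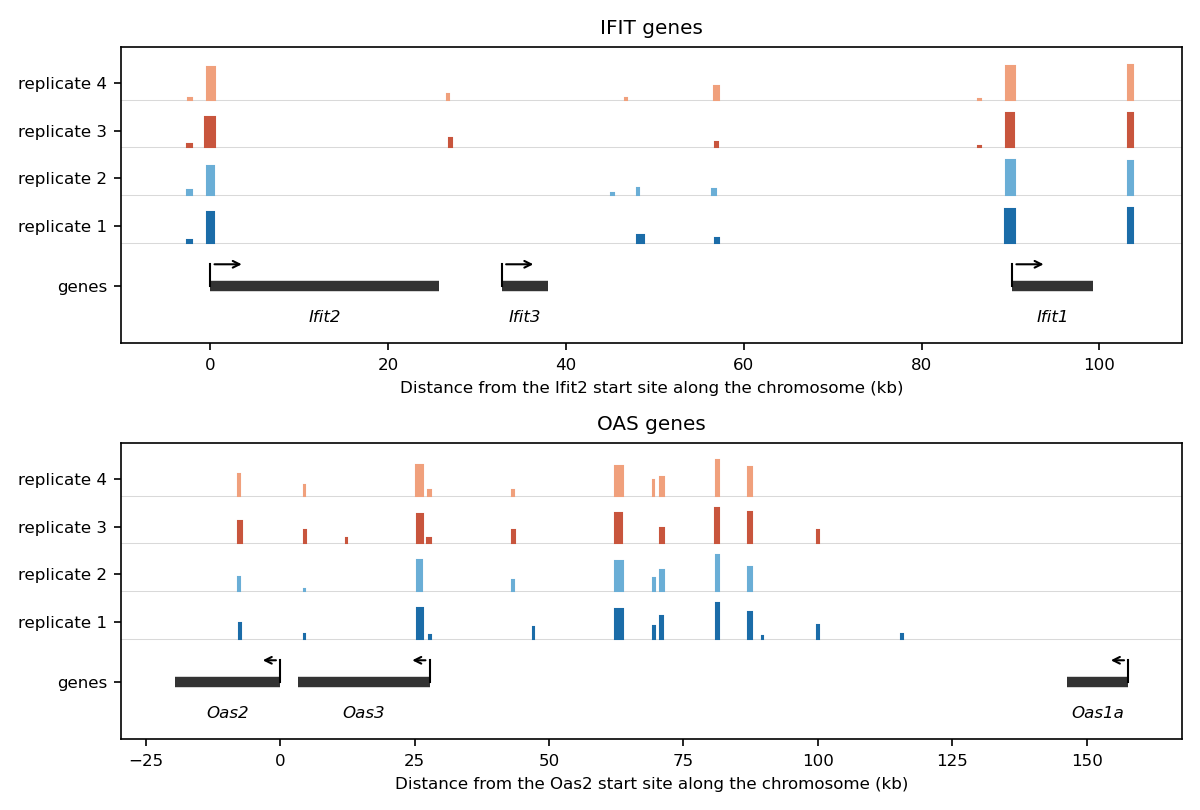
Regions of each replicate (coloured blocks; height is proportional to the percentile of the signal within the replicate) around the IFIT genes (top) and 3 OAS genes (bottom), by distance from the Ifit2 or Oas2 start site (x axis, kb); black bars are the listed genes, arrows their start sites, and other genes are not drawn. Blocks stand at the Ifit2 and Ifit1 starts in every replicate and at none of the Ifit3, Oas2 and Oas1a starts.

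Rsad2, the gene of the antiviral enzyme viperin, and Mx1, a dynamin-like GTPase gene that restricts influenza viruses, were both open. Rsad2 had signals of 13.5, 15.9, 13.4 and 13.6, a percentile of 92.1 ± 2.55 (SD, n = 4). Mx1 stood at 64.7 ± 2.36. ISG15 is a ubiquitin-like protein, Usp18 encodes the protease that removes it, and Trim25 encodes a ligase that activates RIG-I. Isg15 (chr4:156199424-156200818) had signals of 4.63, 5.39, 4.57 and 4.67, a percentile of 36.5 ± 3.23, while Usp18 had 6.88, 7.32, 6.76 and 6.43 (55.7 ± 2.35) and Trim25 had 8.36, 8.45, 7.67 and 8.34 (65.3 ± 1.10). Isg15 was thus below Usp18 and Trim25 in each replicate. Parp9 and Dtx3l, which encode partners in an ADP-ribosylation and ubiquitin ligase complex, are transcribed in opposite directions from separate starts, and the same region lay within 1 kb of a start of each, at 70.9 ± 1.79. Parp14, a further ADP-ribosyltransferase gene, had 3.68, 4.18, 4.53 and 4.16, a percentile of 28.4 ± 5.85.

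IFITM proteins block viral entry at membranes, and BST2, or tetherin, holds budding virions at the cell surface. Bst2 (75.04 ± 2.49), Ifitm1 (58.4 ± 5.23) and Ifitm2 (39.9 ± 3.6) were open, but the summit of the Ifitm2 region lay 1168 to 1178 bp downstream of its start. Ifitm3 (chr7:141009586-141010770) had regions in replicates 2, 3 and 4, with signals of 9.89, 9.57 and 11.1. In replicate 1 the corresponding region had a signal of 10.5 and began 1133 bp downstream of the start, so it missed the 1 kb window. In replicates 2, 3 and 4 the summit lay 1594 bp downstream, and replicate 3 alone also had a weak region 84 bp downstream of the start, with a signal of 1.99. With a window of 2 kb Ifitm3 was open in all replicates.

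The guanylate-binding proteins attack vacuoles of intracellular pathogens, and their genes Gbp7 (79.6 ± 1.37), Gbp5 (66.3 ± 4.89) and Gbp2 (56.9 ± 5.68) were open. Gbp7 had signals of 11.1, 11.5, 10.02 and 10.9. The immunity-related GTPases of mouse act on the same vacuoles, and the open promoters of this family had the lowest median percentile of the role groups, 29.2. This median is over 3 open genes, and Igtp and Irgm2 enter it with the same region. Irgm1 had signals of 3.59, 3.67, 3.74 and 4.26, a percentile of 24.2 ± 4.75. Igtp and Irgm2 had 1 region in common within 1 kb of an annotated start of each, with 4.45, 4.30, 3.87 and 4.18 and a percentile of 29.2 ± 1.63. The summit of that region lay 1694 to 1776 bp downstream of the Igtp start, so Igtp was not open when the summit itself had to lie in the window. Irgm2 had 2 shared regions within 1 kb of its starts, and its values here are those of the stronger. Iigp1 had regions of 2.58, 2.93 and 3.11 in replicates 2, 3 and 4, at percentiles of 5.88, 13.5 and 14.1, and none within 38316 bp in replicate 1. Igtp, Irgm2 and Iigp1 have 84.5%, 85.8% and 81.9% of their promoter stretches once in the genome, the next lowest shares after Samd9l (48.5%), Ifit3 (51.3%) and Oas1a (81.7%). These shares cover the windows of all start sites of a gene. From 250 bp before to 50 bp after the most upstream start they were 92.8%, 68.1% and 48.6%, against 47% at Ifit3.

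Of the remaining interferon-stimulated genes, Xaf1, the gene of an inhibitor of an anti-apoptotic protein, had signals of 14.1, 14.6, 14.1 and 14.9, a percentile of 93.3 ± 1.78 (SD, n = 4). Ifi35 stood at 59.6 ± 2.26. Ifi44 (chr3:151730922-151749960) had no region in its whole window, and the nearest lay 79269, 188801, 188780 and 188792 bp upstream in replicates 1 to 4. Samd9l (chr6:3372257-3399572), the gene of a restriction factor against poxviruses, had no promoter region; regions in its intron began 1245, 1280, 1122 and 1067 bp downstream of the start, with signals of 5.29, 6.01, 5.47 and 7.07. With a window of 2 kb Samd9l was open in all replicates, and Ifi44 was not.

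The share of stretches found once in the genome was lower at the members that were not open. The 8 promoters not open in all replicates had a median of 87.2% (range 48.5% to 97.9%), and the 36 open ones a median of 97.8% (lowest 84.5%, at Igtp). Oas2, Oas3 and Ifitm3 had 97% to 97.9% and were still not open in all replicates. How much of the difference comes from reads that could not be placed was not tested.

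Accessible regions of the members were not confined to promoters. Over the gene bodies and 10 kb on each side, merging the lists gave 217 regions; 150 of them (69.1%) were found in all 4 replicates, against 68% in the whole series. Of these 150 regions 42 lay at a member's promoter, 13 at the promoter of another gene, 48 in introns, 10 in exons and 37 between genes. The median member had 3 such shared regions and the median protein-coding gene 2, or 0.866 and 0.534 per 10 kb, with windows of 38.4 kb and 37.4 kb. Jak1 had 17, Jak2 9, and Ifnar2, Ifih1 and Trim25 had 7 each. Ifi44, Ifit3, Iigp1 and Oas1a had 0, that is 4 of 44 members, against 23.1% of all protein-coding genes.

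**Figure D4:**
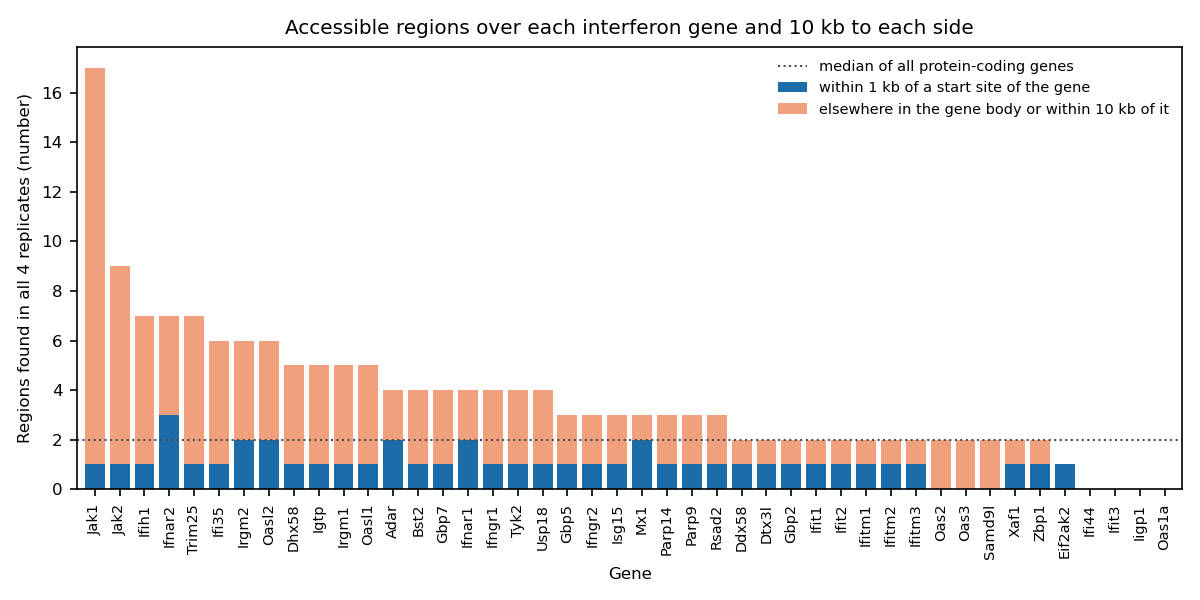
Number of regions found in all 4 replicates (y axis) over each interferon gene and 10 kb on each side (x axis), divided into regions within 1 kb of a start site of the gene (blue) and elsewhere (orange); the dotted line is the median of all protein-coding genes, 2. Jak1 has 17, and Ifi44, Ifit3, Iigp1 and Oas1a have 0.

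Regions away from promoters were among the strongest of the members' windows. An intron of Ifnar2 held the region with the highest percentile, 99.0 ± 0.674 (SD, n = 4; chr16:91397847-91398677), with signals of 18.7, 17.6, 17.6 and 16.5. A region downstream of Ifit1 (chr19:34653868-34654533) had 15.7, 16.2, 14.8 and 15.4, a percentile of 96.1 ± 0.37, and 1 downstream of Usp18 (chr6:121271872-121272984) had 15.7, 15.7, 15.2 and 16.7, at 96.6 ± 1.56. These regions exceeded the promoter region of the same gene in the mean, at Ifnar2 and Usp18 in every replicate and at Ifit1 in replicates 1, 3 and 4. In the Jak1 window the strongest region outside the promoter lay in an intron of the neighbouring gene Raver2 (chr4:101141376-101142445; 82.8 ± 3.07), and the strongest in a Jak1 intron stood at 80.5 ± 3.72. At Jak2 an intron region (chr19:29270255-29272005) stood at 88.2 ± 1.87, at Ifih1 an intron region (chr2:62626154-62626855) at 79.4 ± 5.15, and at Trim25 a region upstream of the gene (chr11:88993146-88994468) at 82.9 ± 2.82. The shared regions at member promoters had a median percentile of 69.4 and those in exons, introns and between genes 49.6.

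The ISRE string was found at 30 of 44 member promoters (68.2%), against 5478 of 21938 promoters of protein-coding genes (25%). The reversed letters (AAAG, any 2 bases, AAAG), which have the same base composition, were found at 15 of 44 (34.1%), against 26.1%. The longer string, which is the shorter followed by CT, was found at 17 of 44 (38.6%), against 374 promoters (1.7%). The shorter string was present at 29 of the 37 interferon-stimulated members and at 1 of the 7 receptors and kinases, Jak1. Interferon-stimulated genes are known for this element, so its presence describes the list and not the cells. It was also present at promoters that were not open: 7 of the 8 members that were not open in all replicates held it, Ifi44 being the exception, and 23 of the 36 open ones.

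Most ISRE strings of open members lay under an accessible region. At 21 of the 30 members with a string (70%) at least 1 string was under a region in all 4 replicates, against 1287 of the 5478 promoters with a string (23.5%). Both sets include promoters that were not open, and the members as a whole were open more often than all genes (81.8% against 64.1%). At 10 of 30 (33.3%) a string lay within 100 bp of a summit in all 4 replicates, against 188 of 5478 (3.43%); these were Dhx58, Eif2ak2, Gbp7, Ifih1, Ifit1, Irgm2, Isg15, Rsad2, Usp18 and Zbp1. Among the promoters whose string was under a region in all 4 replicates, these were 47.6% of the members' and 14.6% of all. At Usp18 the nearest string lay 6, 44, 49 and 11 bp from the summit in replicates 1 to 4, at Isg15 47, 52, 16 and 46 bp, and at Gbp7 24, 63, 57 and 24 bp. At Rsad2 the distances were 58, 58, 58 and 62 bp, all to the same string. At Ifit1 the string at -63 bp lay 37, 43, 37 and 37 bp from the summit and the string at -82 bp 56, 24, 56 and 56 bp, so the nearer string in replicate 2 was the other one than in replicates 1, 3 and 4. In the open promoters of Jak1 and Oasl1 the string lay outside the regions. Of the 53 pairs of a member and a string, which hold 51 distinct strings, 41 lay within 200 bp upstream of a start site.

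**Figure D5:**
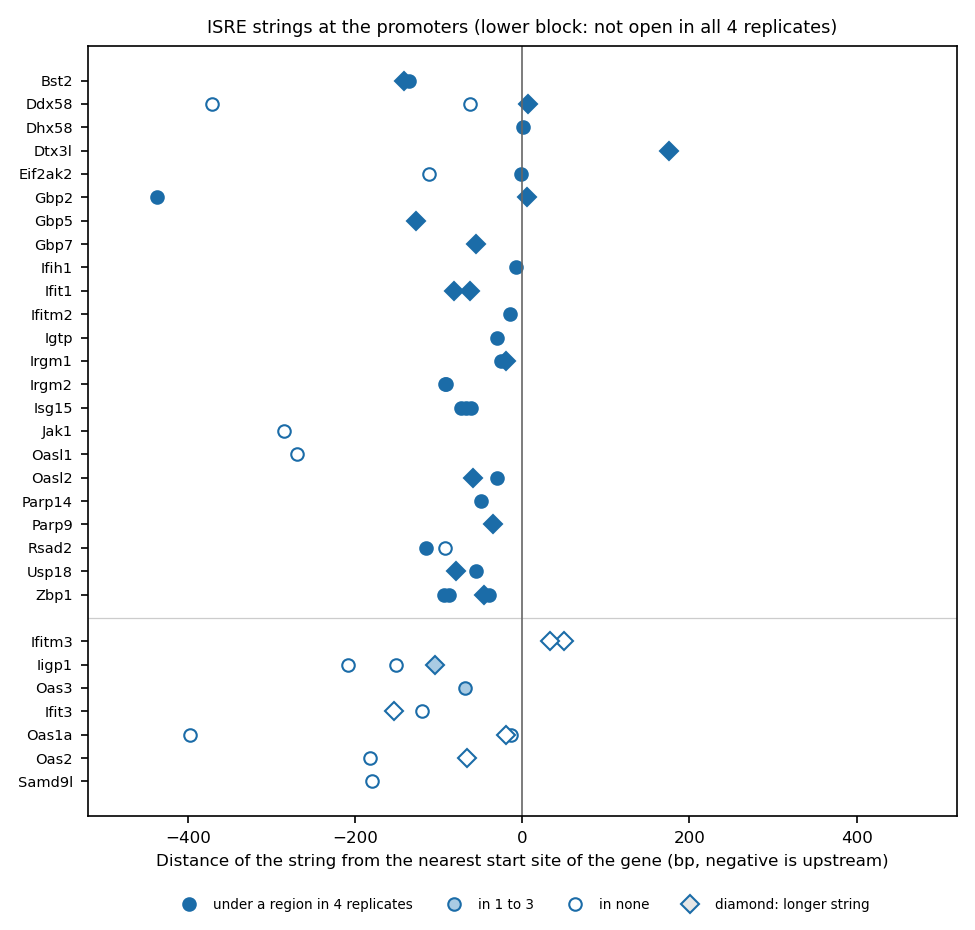
Position of each ISRE string relative to the nearest start site (x axis, bp) at the 30 member promoters that hold one (y axis), with diamonds for the longer string. Filled symbols lie under a region in 4 replicates, pale ones in 1 to 3 and open ones in none; the open symbols of the lower block belong to promoters such as Oas2, Oas1a and Ifit3.

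Over all regions in the members' windows, promoters and others, 12 of 184, 10 of 184, 11 of 185 and 10 of 182 summits had an ISRE string within 50 bp in replicates 1 to 4. This is 5.85% ± 0.503 (SD, n = 4), against 1.71% ± 0.033 of all regions. The reversed string was at 1.09% ± 0.441 of the members' summits and 1.07% ± 0.028 of all. The shares were thus apart by more than the spread between replicates for the ISRE and within it for the reversed string. The replicates largely measure the same regions, so this spread does not cover the choice of regions. Within 25 bp of the summit the ISRE was at 0.955% of the members' summits and 0.553% of all, and within 100 bp at 10.9% and 3.48%. AP-1 strings (TGANTCA), common in activated T cells, stood at 20.7% ± 1.03 of the members' summits and 21.1% ± 0.223 of all, and RUNX strings (TGTGGT) at 11.2% ± 1.42 and 12.7% ± 0.055. The ranges of the replicates overlapped for both.

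Other strings were searched the same way within 500 bp of the start sites. GAS (TTCNNNGAA) was found at 28 of 44 members (63.6%), against 47.3% of all promoters, and the NF-kB string (GGGA, any base, TTTCC) at 7 (15.9%), against 2.69%. The ETS and IRF composite string (GGAA, any 2 bases, GAAA) was at 13 members (29.5%), against 20.2%, and the AP-1 and IRF composite (TGANTCA followed after 3 bases by GAAA, or directly after GAAA) at 0, against 1.53%. AP-1 was at 20 members (45.5%), against 41%, ETS (CCGGAAG) at 9 (20.5%), against 26.7%, RUNX at 32 (72.7%), against 69.4%, and the GC box (GGGCGG) at 30 (68.2%), against 68.1%. Within 50 bp of the summits, GAS stood at a mean of 5.3% of the members' and 3.51% of all. The ETS and IRF composite stood at 3.67% and 1.08%, and the GC box at 11.4% and 8.59%. Each of these was higher at the members in every replicate. ETS (0.818% and 1.81%), the AP-1 and IRF composite (0% and 0.805%) and NF-kB (0% and 0.37%) were lower in every replicate. These rest on few matches: among 182 to 185 member summits ETS had 2, 2, 0 and 2, and the other strings 0. At such low shares a count of 0 does not show that a string is rarer at the members. The replicates largely measure the same regions, so their agreement, in either direction, does not cover the choice of regions. Strings can overlap, as the AP-1 composite holds the AP-1 string. A match is a run of letters and not a bound site.

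Other genes of the pathway, apart from those of the interferons, were mostly open as well, against 64.1% of all protein-coding genes. Stat2, the gene of a transcription factor activated by the type I receptor, was open at a percentile of 99.3, and Irf9, the gene of its DNA-binding partner, at 91.4. The gene lists of this paragraph were chosen with earlier results of these data known, so their shares are descriptions and not tests. Of 29 further interferon-stimulated genes 28 were open, and Gbp4 had a region in 1 replicate. Of the 20 in the lowest 2 CpG quintiles 19 were open, against 27% of genes there. The lowest of the open ones, Gbp6, had a percentile of 16.5 ± 8.81. Of 12 genes that sense nucleic acids or relay that signal to induce interferon 11 were open, and Tlr3 had a region in 1 replicate; of the 7 in the lowest 2 CpG quintiles 6 were open. Both chains of the interferon lambda receptor, Ifnlr1 and Il10rb, were open. Of the interferon genes themselves 2 of 10, Ifna4 and Ifne, were open. All 10 lie in the lowest 2 CpG quintiles, where 27% of all genes were open. The Ifna4 region was weak, with signals of 3.46, 3.03, 3.44 and 3.82 (18.9 ± 5.23). The summit of the Ifne region lay at -1160 to -1108 bp from the start, outside the promoter window. Ifng and Ifnl2 had a region in 3 replicates, and Ifna1, Ifna2, Ifna5, Ifnb1, Ifnk and Ifnl3 in 0. At Ifna1, Ifna5, Ifnl2 and Ifnl3 only 72.5%, 69.7%, 60.2% and 57% of the promoter's 50-base stretches occur once in the genome.

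Region names contain the tag KS134 (replicates 1 and 2) or KS136 (replicates 3 and 4), whose meaning is not explained. The names also hold the words 72hrs, ASTARR insert, masked and dedup in all 4 replicates, which the labels do not explain; which stretches were masked is not given in the sources used here. Of the 3 members open in 3 replicates, Iigp1 lacked a region near its start in replicate 1 and Oas3 in replicate 2, whereas the Ifitm3 region of replicate 1 was present and only missed the window. In the members' windows 4 merged regions were found in both KS134 replicates alone and 4 in both KS136 replicates alone. A region between Ifit2 and Ifit3, with signals of 3.83 and 3.11, was of the KS136 kind. With 2 replicates against 2 no exact test can pass 0.05, so the tags were not tested.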

How the data were processed

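Each replicate has 1 peak list, called from that replicate's own alignments per the file headers, on mm10 per the labels; which aligner and which caller made it is not given in the sources used here. The deposited signal is the ratio of a region's enrichment over background, made by the authors and not normalised between replicates. Each region also has a deposited −log10 p and −log10 q, and the lists end at a −log10 q of about 1.00. The deposited score, which tracks the −log10 q, was not used. Read counts were not analysed here, so no counting intervals are given, and precision is the spread of the 4 replicates (SD).

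Regions were set against GENCODE M21 with Python 3.11.15, numpy 2.4.6 and pandas 2.3.3. Overlapping regions (at least 1 bp) were merged over the replicates. A gene's regions were those over its body and 10 kb on each side, and its promoter was 1 kb on each side of any annotated start. Strings were searched in GRCm38.p6. Sequences are from RefSeq, whose promoter table held 36 of the 44 members. 50-base stretches were counted over the autosomes and sex chromosomes of GRCm38.p6, on both strands. No two-group test was possible with 1 group. Every member is named, and values in each replicate are given for receptors and kinases, for members not open in all replicates, for the 5 highest and 5 lowest percentiles, the 5 with most regions, and those whose sequence is shown. Of 30 listed further interferon-stimulated genes, Oas1b, a polymorphic pseudogene in the annotation, was not counted. The scripts' calls were tested on simulated data. The members and the gene lists were chosen with earlier results of these data known. The count over the genes that carry the receptors' signal is not reported here.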

Additional observations from a re-analysis of the deposited data

Results flagged for a closer look

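Of 38 quantities with 4 replicate values, 2 had a replicate far from the others, and chance alone sets apart about 1 in 20 of independent values. The 38 are not all independent, since Igtp and Irgm2, and Parp9 and Dtx3l, share a region. The percentile of the Gbp7 promoter signal was 77.6 in replicate 3, against 80.1 to 80.5 in the other replicates. The median number of regions per member window was 3.5 in replicate 2, against 4 in replicates 1, 3 and 4. Because replicates 1, 3 and 4 were tied, any other value in replicate 2 would have been set apart.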

How the results depend on the processing

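No paired analysis was possible because there is 1 group. Under 14 other settings for open promoters the members' count ran from 30 to 39 of 44, and their share stayed above that of all protein-coding genes in each; 27 members were open under every setting, Ifi44, Ifit3, Oas1a and Oas2 under none, and 13 changed their call under at least 1. The lowest count came with the strongest 50000 regions of each replicate, where Ifitm2, Igtp, Irgm1, Irgm2, Isg15 and Parp14 were no longer open. Leaving out each replicate in turn gave 36 to 38 members and 14109 to 14163 genes. The median number of shared regions was 2 with no flank, with the strongest 50000 regions and with summits within 100 bp, 2.5 with a 5 kb flank or only regions at −log10 q ≥ 10, 4 when 2 replicates sufficed and 8 with a flank of 50 kb. The distinct regions numbered 91 with no flank, 330 with 50 kb and 95 with the strongest 50000 regions. The members' median percentile was 71.4 with a window of 500 bp, 72.7 with 2 kb, 64 for −log10 q ≥ 10, 72.6 with the most upstream start only, 78.7 ranked by −log10 q and 70.5 for the nearest region; it ran from 71 to 72.2 without 1 replicate. The median of all open protein-coding promoters was higher in every setting compared, at 75.1 to 85.9. The ISRE string was at 17 members in its longer form (1.7% of all promoters), 15 reversed (26.1%), 27 from 250 bp before to 50 bp after a start (10%), 31 within 1 kb (40.9%) and, with the most upstream start only, a setting chosen after seeing the data, 26 (11%). The share of summits with the string was 0.955% within 25 bp, 10.9% within 100 bp, 1.5% for the longer and 1.09% for the reversed string, 6.65% for −log10 q ≥ 10, 7.59% with the strongest 50000 regions, and 5.63% to 5.99% without 1 replicate. The causes were not tested. Without read counts, a promoter with no region cannot be told apart from 1 below the authors' threshold.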
